A study of Mus musculus with 13 samples.

Results

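Esr1 and Gper1 encode 2 receptors through which cells respond to oestrogen, and the data described here are the H3K27ac peaks that 9 mouse melanoma cell lines carried around them. The genes were chosen by name with their peak calls in these 9 lists already known, so their values are given as a description, with no test between groups and no p. Every peak overlapping the annotated body of either gene extended by 50 kb on each side was taken, and overlapping or touching peaks of different lists were merged into elements. This gave 51 peaks in 12 elements (22 peaks in 7 elements at Esr1 and 29 peaks in 5 elements at Gper1), out of 256200 peaks in 59668 merged regions over the whole genome.

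Esr1 encodes oestrogen receptor-α (ERα), a nuclear receptor that binds oestradiol and then acts on DNA as a transcription factor, either at oestrogen response elements or through other bound factors. Gper1 encodes a membrane receptor coupled to G proteins, which gives rapid signalling and does not bind DNA. H3K27ac, acetylation of lysine 27 of histone H3, marks active promoters and enhancers, and promoters in use usually carry it.

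The study asked how loss of E-cadherin acts with sex in melanoma. All lines came from melanomas of mice with a Tyr::NRAS Q61K transgene, 1 lost copy of Cdkn2a (Cdkn2a +/-) and both Cdh1 alleles floxed (Cdh1 F/F). ΔEcad lines also carried Tyr::CreA, in which the tyrosinase promoter drives Cre in melanocytes, and Ecad lines lacked Cre. Male Ecad (Ma_1007, Ma_1181), female Ecad (Ma_1014, Ma_1039) and male ΔEcad (Ma_1062, Ma_1456) had 2 lines each, and female ΔEcad had 3 (Ma_1057, Ma_1064, Ma_1069), with 1 peak list for each line. Lines were grown in F12 medium with serum and no treatment is given, and whether a line is 1 clone is not stated.

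Lists held between 20741 (Ma_1069) and 41663 peaks (Ma_1007), and the 3 female ΔEcad lists covered 29.5 to 39.6 Mb against 37.1 to 67.2 Mb in the other 6. Promoters (a peak within 1 kb of a start site) of the melanocyte genes Sox10, Mitf, Dct, Tyr, Pmel and Mlana were called in all 9 lists, and that of Tyrp1 in 6. Those of Krt5, Krt14, Col1a1, Pecam1, Cdh5 and Ptprc were called in none, that of Pdgfra in Ma_1007 alone, and that of Cd68 in the 4 male lists. The Xist promoter was called in the 5 female lists only, and the Y-linked promoters of Kdm5d, Eif2s3y, Uty and Ddx3y in the 4 male lists only, as labelled. The Cdh1 promoter was called in no list, Ecad lines included, so these peaks do not check the deletion.

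The sequences below carry the results at both genes: the summits of the 4 elements inside Esr1 that all 3 female ΔEcad lists called, and the sole element inside Gper1. Each is a window of up to 300 bases around the summit of the strongest peak of the element, from the plus strand of the GRCm38 assembly of RefSeq, with AGGTCA half-sites in capitals. Esr1 and Gper1 both lie on the plus strand. The first window is named after its element, the one at the Esr1 start sites. It lies in intron 1, past the end of exon 1 at 4612155, and holds no start site.
Esr1 start site, chr10:4612428-4612727: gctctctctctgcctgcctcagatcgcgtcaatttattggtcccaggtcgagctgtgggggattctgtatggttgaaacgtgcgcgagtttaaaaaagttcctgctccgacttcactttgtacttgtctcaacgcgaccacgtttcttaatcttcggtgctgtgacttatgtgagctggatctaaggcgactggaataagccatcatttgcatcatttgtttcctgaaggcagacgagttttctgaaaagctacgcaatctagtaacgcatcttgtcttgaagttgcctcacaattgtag
Esr1 intron 1, +6.53 kb, chr10:4618863-4619162: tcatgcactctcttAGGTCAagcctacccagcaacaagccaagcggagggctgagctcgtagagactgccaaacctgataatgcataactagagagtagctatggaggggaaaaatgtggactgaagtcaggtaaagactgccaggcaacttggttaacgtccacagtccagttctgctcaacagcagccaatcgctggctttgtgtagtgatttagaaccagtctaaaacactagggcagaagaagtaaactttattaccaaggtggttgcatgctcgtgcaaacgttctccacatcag
Esr1 intron 1, +9.04 kb, chr10:4621219-4621518: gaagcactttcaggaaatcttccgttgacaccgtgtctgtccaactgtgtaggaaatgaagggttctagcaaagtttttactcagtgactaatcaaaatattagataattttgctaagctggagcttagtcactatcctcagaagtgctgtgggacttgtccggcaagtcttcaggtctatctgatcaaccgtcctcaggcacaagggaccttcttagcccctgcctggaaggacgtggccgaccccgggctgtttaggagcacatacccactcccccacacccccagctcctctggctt
Esr1 intron 8, +375 kb, chr10:4987266-4987565: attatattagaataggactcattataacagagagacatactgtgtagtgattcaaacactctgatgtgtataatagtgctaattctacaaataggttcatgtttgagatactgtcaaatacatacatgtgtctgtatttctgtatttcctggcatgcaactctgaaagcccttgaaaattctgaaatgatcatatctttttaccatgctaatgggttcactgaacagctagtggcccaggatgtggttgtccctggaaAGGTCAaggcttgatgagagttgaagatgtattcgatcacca
Gper1 intron 2, +1.11 kb, chr5:139423873-139424070: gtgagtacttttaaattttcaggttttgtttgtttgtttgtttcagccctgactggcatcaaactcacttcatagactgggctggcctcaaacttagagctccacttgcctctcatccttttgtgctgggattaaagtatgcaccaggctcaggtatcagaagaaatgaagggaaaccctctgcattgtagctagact

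Esr1 (ENSMUSG00000019768.16) spans chr10:4611593-5005614 in mm10, 394 kb on the plus strand, with 10 annotated transcripts and 9 distinct start sites. Positions are given from the start at 4611989 of its protein-coding transcript of 10 exons. Acetylation was called within 1 kb of 1 group of starts only, the 5 start sites between 4611593 and 4612021. The downstream starts at 4710155, 4712651, 4922970 and 4936526 had no peak beside them in any list, and the element nearest to any of them lay 48870 bp away. In female ΔEcad lines, peaks clustered at or just past the start site, along the first 10 kb of intron 1 and in intron 8, as the map of Esr1 shows.

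**Figure D1:**
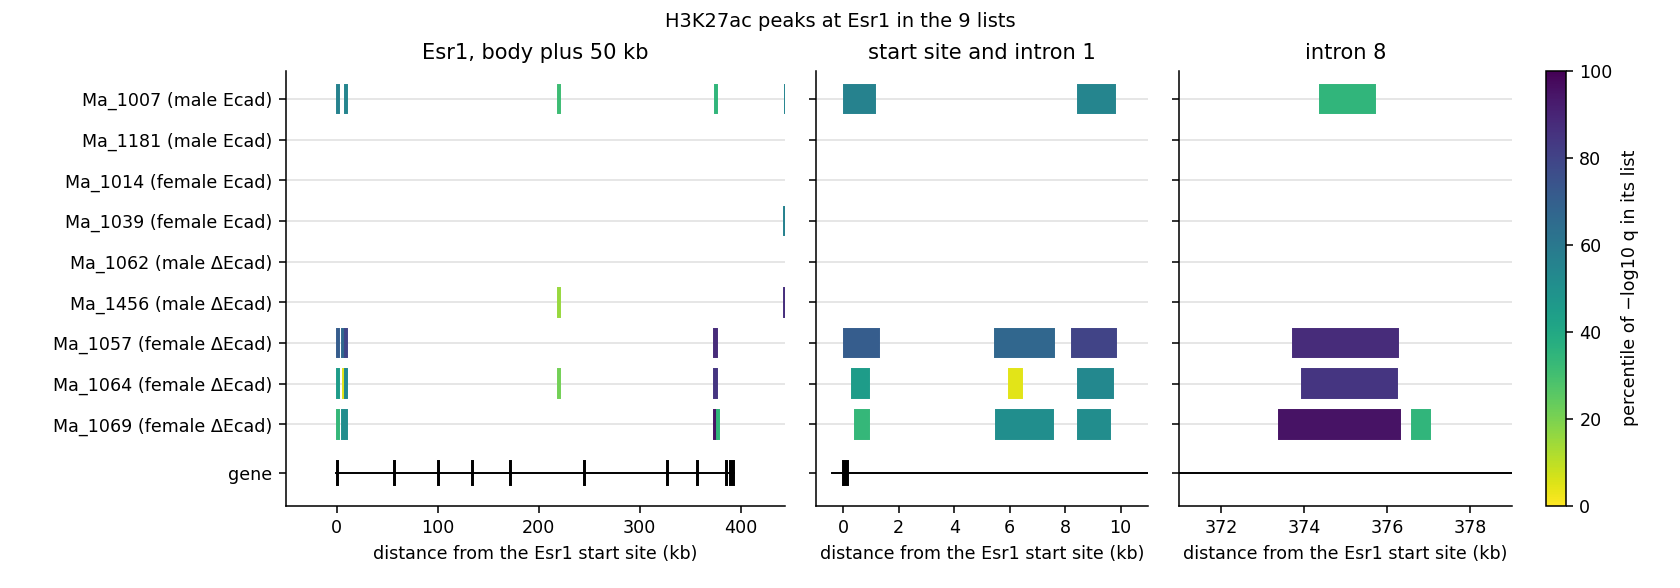
H3K27ac peaks at Esr1 by line, with distance from the start site in kb on the horizontal axis and 1 row per list (left, gene body plus 50 kb; middle and right, enlargements). Colour gives the percentile of a peak's −log10 q within its own list, and the bottom row shows the exons of the 10-exon transcript. Ma_1181, Ma_1014 and Ma_1062 have no peak, and the 3 female ΔEcad lists share peaks in intron 1 and intron 8, most of them also present in Ma_1007.

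The start-site element (chr10:4612001-4613275, 1275 bp, exon 1 and intron 1) was called in 4 lists. Strength is given below as fold enrichment of the peak over its local background and as the percentile of its −log10 q within its own list, since lists differ in length. The start-site peak had a fold of 13.8 (percentile 70.8) in Ma_1057, 8.42 (45.1) in Ma_1064, 6.79 (33.5) in Ma_1069 and 6.48 (55.8) in the male Ecad line Ma_1007. By percentile Ma_1007 lay within the range of the female ΔEcad lines, and by fold it lay below all 3. Summits were 589 to 735 bp downstream of the start. A mark on part of the cells of a line and a weaker mark on all of them cannot be told apart in these lists. The peaks of Ma_1007 and Ma_1057 began at the same base, 4612001, and reached into exon 1, which ends at 4612155. Those of Ma_1064 and Ma_1069 were narrower (616 and 505 bp against 1145 and 1275 bp). They began at 4612283 and 4612395, in intron 1 and downstream of every start of this group, so they covered no start site.

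A promoter call in all 3 female ΔEcad lists with no more than 1 among the other 6 was found for 0.105% of 21938 protein-coding genes. The calls of Esr1 are what it was chosen on, so nothing is read from its place among them. Within the stronger 50% of each list the Esr1 promoter was called in Ma_1057 and Ma_1007 only.

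The element centred +6.53 kb from the start (chr10:4617451-4619579, 2129 bp, intron 1) was called in the 3 female ΔEcad lists and in none of the other 6. Its fold was 12.6 (percentile 67.0) in Ma_1057, 8.8 (51.0) in Ma_1069 and 4.89 (4.41) in Ma_1064. Peaks in Ma_1057 and Ma_1069 were 2129 and 2075 bp wide, and the 456 bp peak of Ma_1064 was among the weakest of its list. Summits were spread over 944 bp, so the lines did not share 1 summit here. Among merged regions, 0.434% had the same calls.

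The neighbouring element at +9.04 kb (chr10:4620220-4621840, 1621 bp, intron 1) had the most closely aligned summits of the elements called in more than 1 list. Its fold was 11.7 (percentile 80.0) in Ma_1057, 6.55 (53.2) in Ma_1064, 6.02 (51.4) in Ma_1069 and 8.05 (54.3) in Ma_1007. The 4 summits lay within 38 bp of each other, 9342 to 9380 bp from the start, and those of Ma_1007 and Ma_1064 fell on the same base. Calls in the 3 female ΔEcad lists and Ma_1007 alone were found for 0.654% of merged regions, and 3 Esr1 elements (start site, +9.04 kb and +375 kb) had them.

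The strongest element in female ΔEcad lines was not at the promoter but at +375 kb (chr10:4985396-4988303, 2908 bp, intron 8). Its fold was 27.9 (percentile 95.1) in Ma_1069, 22.8 (87.6) in Ma_1057 and 19.3 (84.7) in Ma_1064, against 5.48 (34.7) in Ma_1007. It ranked above every other Esr1 element in each of the 3 female ΔEcad lists, by fold and by percentile. In Ma_1007 it ranked below the start site, +9.04 kb and +445 kb elements by both measures. Summits of the 3 female ΔEcad peaks lay 375340 to 375427 bp from the start and that of Ma_1007 at 374679 bp. No annotated Esr1 start lies near it: the closest, at 4936526, is 48870 bp away, and the closest start of any gene is that of Gm25694, 48153 bp away. Ma_1069 had a further small peak of 439 bp at +377 kb, with a fold of 6.79 (percentile 34.6).

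Beyond these, the +219 kb element (chr10:4830842-4831393, 552 bp, intron 5) did not follow the groups. It was called in Ma_1007, Ma_1456 and Ma_1064, with percentiles of 31.6, 15.3 and 21.1. The last element, +445 kb (chr10:5055120-5058089), crossed the outer edge of the 50 kb flank and lay 10824 bp from a start of Syne1, which encodes nesprin-1 of the nuclear envelope. Peaks of Ma_1007, Ma_1039 and Ma_1456 reached into the flank, with percentiles of 54.7, 56.5 and 86.4. Those of Ma_1014, Ma_1062, Ma_1057, Ma_1064 and Ma_1069 began 134 to 645 bp outside it, with percentiles of 19.3 to 54.0. The element was therefore present in 8 of 9 lists, Ma_1181 being the exception, and its membership here was set by where the flank ends. On the other side, the nearest peak outside the flank was 67.8 to 128 kb away.

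**Figure D2:**
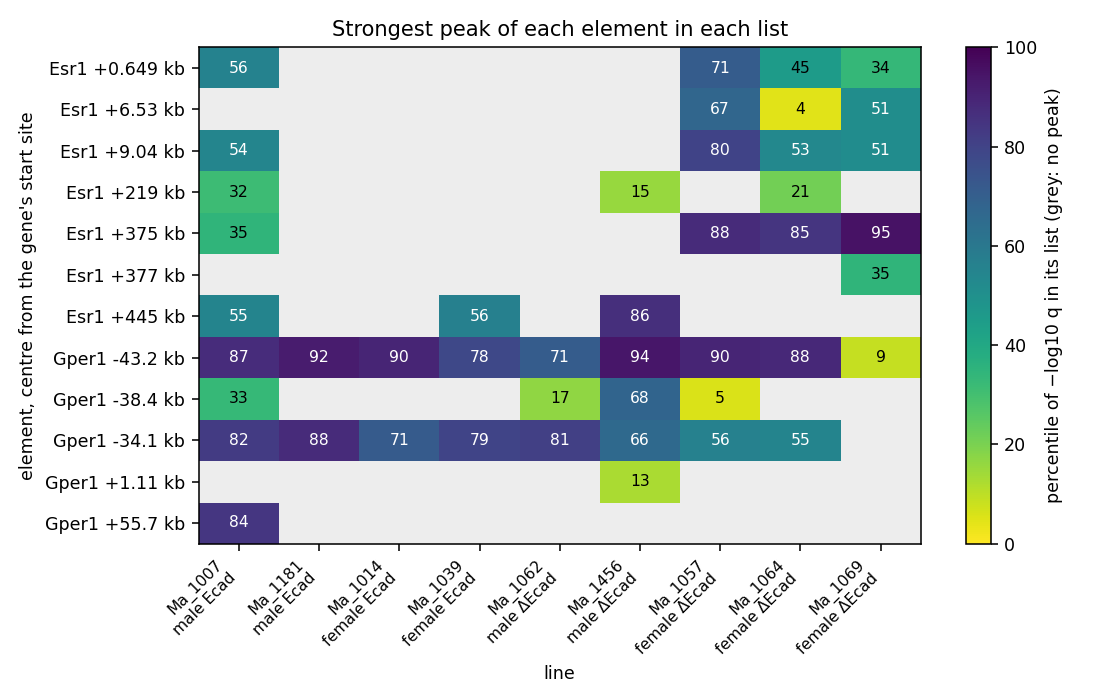
Percentile of the strongest peak of each element (rows, named by the distance of the centre from the gene's start site in kb) in each of the 9 lists (columns). Grey means no peak reaching into the body plus 50 kb. At +445 kb the female ΔEcad lists, Ma_1014 and Ma_1062 are grey but had a peak just outside that edge. So had Ma_1039, Ma_1456 and Ma_1057 at +55.7 kb. At Esr1 the darkest cells are the intron 8 element at +375 kb in the female ΔEcad lists, at 84.7 to 95.1. The +445 kb element in Ma_1456, at 86.4, is among them. At Gper1 the highest values are 93.9 at −43.2 kb (Ma_1456), 87.5 at −34.1 kb (Ma_1181) and 84.2 at +55.7 kb (Ma_1007) for these 3 elements.

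Peaks covered 7.559 kb of the Esr1 locus in Ma_1057, 4.947 kb in Ma_1064 and 7.103 kb in Ma_1069. Among the other lists they covered 4.203 kb in Ma_1007, 0.938 kb in Ma_1456 and 0.212 kb in Ma_1039, and nothing in Ma_1181, Ma_1014 and Ma_1062. The groups did not overlap, although Ma_1007 came within 1 kb of Ma_1064. The means were 6.54 kb ± 1.4 (SD, n = 3) in female ΔEcad lists and 0.892 kb ± 1.66 (SD, n = 6) in the rest. Every female ΔEcad list above every other list was the order of covered length for 0.529% of protein-coding genes. Over body alone, the coverage was 4.186 kb in Ma_1007, 0.443 kb in Ma_1456 and 0 in the other 4 lists, while the female ΔEcad values were unchanged. Over body alone, 0.456% of protein-coding genes had every female ΔEcad list above every other. With a flank of 100 kb the lists overlapped, since Ma_1007 then reached 11.6 kb against 9.83 to 11.3 kb.

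**Figure D3:**
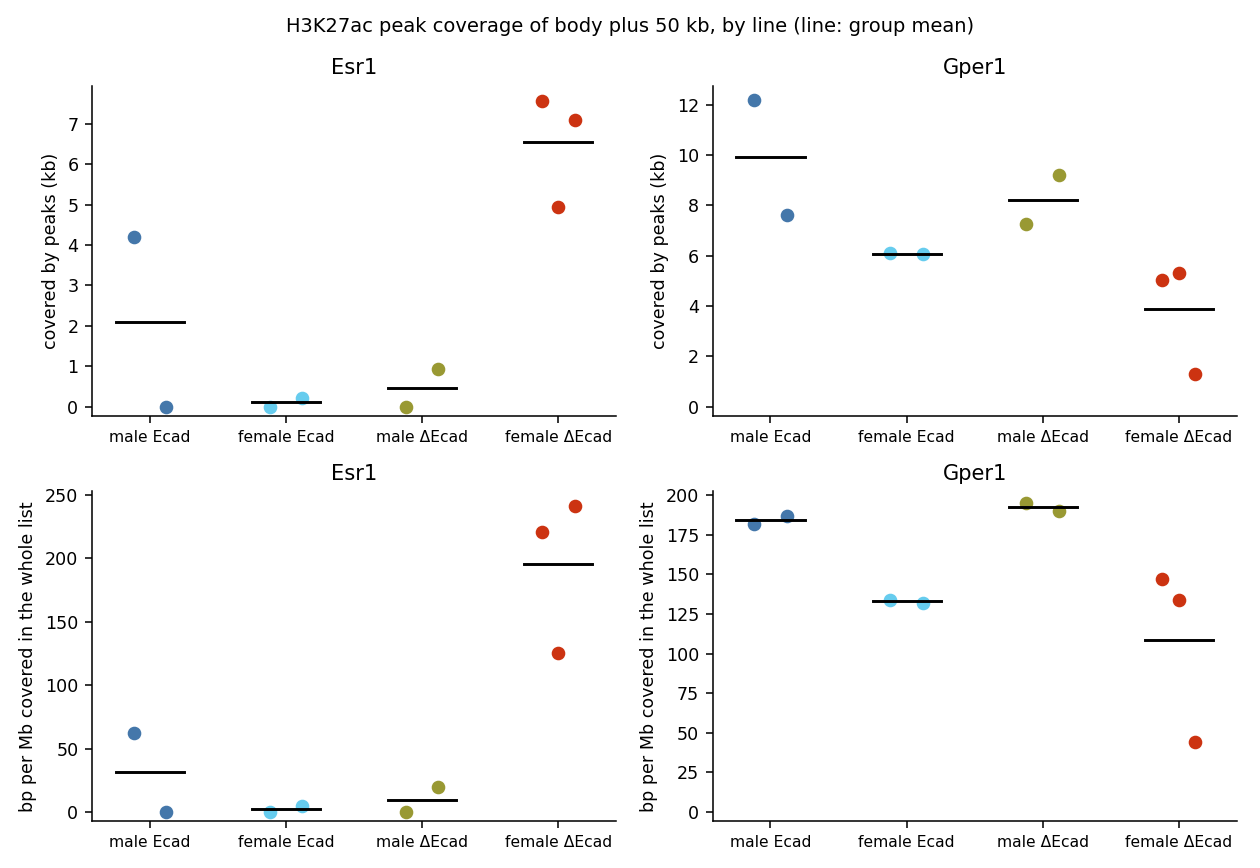
Length covered by H3K27ac peaks over the gene body plus 50 kb, in kb (top) and in bp per Mb covered by the whole list (bottom), for Esr1 (left) and Gper1 (right); points are lines and bars group means. Female ΔEcad lines are highest at Esr1 on both scales, and all below the other lines at Gper1 in kb only.

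The female ΔEcad lists covered less of the genome than most of the rest, so Esr1 coverage was also set against the length of the list. Per Mb covered in the whole list, Esr1 coverage was 221, 125 and 241 bp in Ma_1057, Ma_1064 and Ma_1069, against 62.6 bp in Ma_1007, 19.4 bp in Ma_1456 and 4.63 bp in Ma_1039. The share of all genes with this order per Mb was not taken, and nothing is read from it. Ma_1007, the longest list, shared most of its Esr1 peaks with the female ΔEcad lines. Of its 4.186 kb in the gene body, 96.5% lay under a peak of at least 1 female ΔEcad line. Its overlap with Ma_1057 was 3.805 kb, that with Ma_1064 3.43 kb and that with Ma_1069 2.983 kb. All 3 female ΔEcad lists together shared 4.402 kb, which is 50.6% of the 8.702 kb covered in any of them. Of the 0.443 kb of Ma_1456, 74.5% was covered in Ma_1064, 61.4% in Ma_1007 and none in Ma_1057 or Ma_1069. Among the labels, Ma_1007 shares neither sex nor genotype with these lines.

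Gper1 (ENSMUSG00000053647.4) spans chr5:139423151-139427800, 4.65 kb on the plus strand, with 3 exons and 2 annotated start sites. Its body carried acetylation in 1 list, the male ΔEcad line Ma_1456. That peak (chr5:139423895-139424633, 739 bp) lay in intron 2, downstream of both starts, with its summit 770 bp from the first. Its fold was 3.91 and its percentile 12.8, so it was a weak peak of its list and was not among the stronger 50%. At a window of 500 bp in place of 1 kb it was no longer called as a promoter. Female ΔEcad lists had no peak in the body.

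All other Gper1 peaks were at neighbours. The −43.2 kb element (chr5:139376813-139383162) and the −34.1 kb element (chr5:139386866-139391164) overlay starts of Gpr146, which encodes another receptor coupled to G proteins. The first was called in 9 lists and the second in 8, with Ma_1069 lacking it. Percentiles of the −43.2 kb element ran from 70.8 to 93.9 in the 8 lists other than Ma_1069, where it broke into 2 small peaks with a highest percentile of 8.61. At −34.1 kb the percentiles were 56.0 in Ma_1057 and 54.8 in Ma_1064, against 65.9 to 87.5 in the other 6 lists. In those 6 lists its peaks were 2549 to 4014 bp wide, while in Ma_1057 and Ma_1064 the widest were 736 and 639 bp. Median peak width over the whole list was also lower in Ma_1057 and Ma_1064, at 943 and 1019 bp against 1059 to 1195 bp. The share of all regions with this order of width or percentile was not taken, so it is not read as a result about this element. The −38.4 kb element was called in Ma_1007, Ma_1062, Ma_1456 and Ma_1057, with percentiles of 33.0, 16.6, 67.7 and 5.48. The +55.7 kb element overlay a start of Zfand2a, a zinc finger gene. Its peak reached the flank in Ma_1007 (percentile 84.2), and those of Ma_1039, Ma_1456 and Ma_1057 began 1127, 186 and 654 bp outside.

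**Figure D4:**
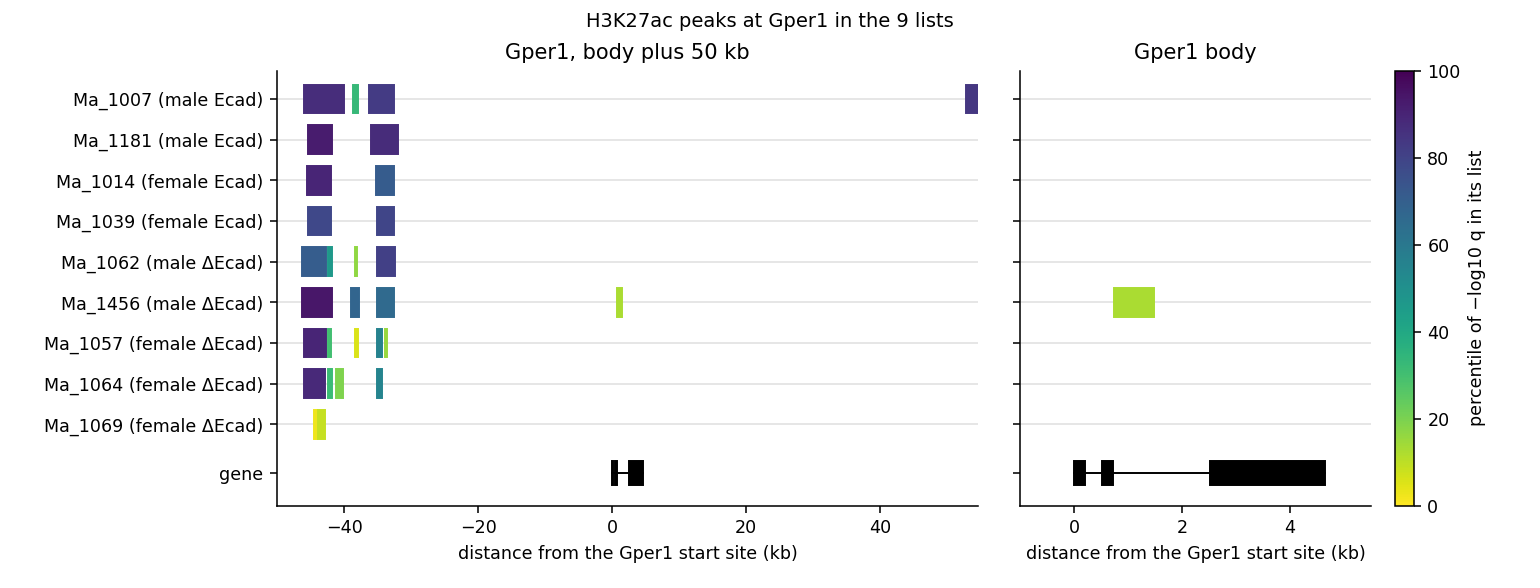
H3K27ac peaks at Gper1 by line, with distance from the start site in kb (left, gene body plus 50 kb; right, the body) and colour as the percentile of −log10 q within the list. The body carries 1 peak, in Ma_1456, and the elements to its left lie over and beside Gpr146.

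Covered length at Gper1 was 5.036 kb in Ma_1057, 5.31 kb in Ma_1064 and 1.295 kb in Ma_1069. It was 12.208, 7.616, 6.117 and 6.048 kb in the Ecad lines Ma_1007, Ma_1181, Ma_1014 and Ma_1039, and 7.242 and 9.191 kb in the male ΔEcad lines Ma_1062 and Ma_1456. The 3 female ΔEcad lists were below all others, with means of 3.88 kb ± 2.24 (SD, n = 3) and 8.07 kb ± 2.33 (SD, n = 6). This order is common, as 20.2% of protein-coding genes had it, and the female ΔEcad lists cover less of the genome than most of the rest. Per Mb covered in the list the groups overlapped, at 147, 134 and 43.9 bp against 132 to 195 bp. Read against that share, the order at Gper1 is not a result about this gene.

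Motif letters were looked for on both strands in the 300-base summit windows of the 12 elements and of 59643 merged regions. A half-site (AGGTCA), the unit that nuclear receptors bind, was in the Esr1 windows at +6.53 and +375 kb and in the Gper1 window at −34.1 kb, and in 17.5% of all region windows. The full oestrogen response element (GGTCA, 3 bases of any kind, then TGACC, with at most 1 mismatch in the 10 fixed bases, so that it holds letters of the half-site) was in none of the 12 and in 0.894% of regions. None held a TCF/LEF word (CTTTGAA or CTTTGAT), the letters bound by the partners of β-catenin, found in 11.9% of regions. Words of AP-1 (TGACTCA or TGAGTCA), MITF (TCATGTG or TCACGTG) and TEAD (GGAATG) were also in none, and in 5.55%, 6.93% and 15.5% of regions. A missing word says only that these letters are not in the window.

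Over the whole length of the elements, a search added after the windows had been seen, TCF/LEF words were present. The 7 Esr1 elements held 8 in 11.9 kb (0.673 per kb) and the 5 Gper1 elements 3 in 18.4 kb (0.163 per kb), against 0.467 per kb over all merged regions. At +6.53 kb there was 1, at +9.04 kb there were 2, at +375 kb there were 3 and at +445 kb there were 2. The first 6 are printed with their surroundings because they lie in elements inside the gene that all 3 female ΔEcad lists called, with the word in capitals on the plus strand.
Esr1 +6.53 kb, chr10:4618825-4618854: gagttctgagacATCAAAGgaaagttctgg
Esr1 +9.04 kb, chr10:4620656-4620685: tgaacgtaattaTTCAAAGggacagtggaa
Esr1 +9.04 kb, chr10:4620986-4621015: atcatgttaaccTTCAAAGcgttcgaaagc
Esr1 +375 kb, chr10:4986900-4986929: ataaagtcctctCTTTGAAgtcttccgtga
Esr1 +375 kb, chr10:4986926-4986955: gtgatgctatgtCTTTGATtcataacaaac
Esr1 +375 kb, chr10:4987672-4987701: cccccatggggcATCAAAGcaccacggtcc
Half-sites numbered 6 in the Esr1 elements (0.504 per kb) and 14 in the Gper1 elements (0.763 per kb), beside 0.682 per kb over all regions. AP-1 words numbered 4 at Esr1 (0.336 per kb) and 3 at Gper1 (0.163 per kb), beside 0.242 per kb. For MITF there were 3 (0.252 per kb) and 3 (0.163 per kb), beside 0.287 per kb. For TEAD there were 4 (0.336 per kb) and 11 (0.599 per kb), beside 0.575 per kb. No full oestrogen response element was in either set. Counts this small are a description, and a match is not a bound site. At +9.04 kb the nearer word ended 327 bp before the nearest of the 4 summits, and at +6.53 kb the word was 170 bp from a summit. At +375 kb the words were 411, 385 and 268 bp from the nearest female ΔEcad summit. In the RefSeq promoter windows of the first Esr1 start and of Gper1, none of the motifs was found. The window of a second Esr1 start held 1 TEAD word, as did 14.7% of 32841 such windows. TCF/LEF words were in 8.65% and half-sites in 16.3% of them.

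Other genes of the pathway were read from lists of 57 genes, Esr1 and Gper1 included in the counts, by promoter calls in the 9 lists. Promoters were called in all lists for 18 genes (31.6%, against 21.1% of all protein-coding genes), in none for 19 (33.3%, against 47.1%) and in some for 20 (35.1%, against 31.8%). Each promoter was tested with the two-sided exact test of Fisher, adjusted by Benjamini-Hochberg over all 21938 genes. No gene passed at an adjusted p of 0.05 in either contrast. Unadjusted p under 0.05 was reached by 980 genes (4.47%) for female ΔEcad against the other 6 lists, 23 called more often and 957 less often. It was reached by 661 (3.01%) for ΔEcad against Ecad, 6 more often and 655 less often, with Crebbp alone among the pathway genes. The smallest p these lists allow is 0.0119 and 0.00794. After adjustment over 21938 genes, a p at this floor could pass only if a large share of all genes reached it. That no gene passed is therefore no evidence that promoters did not differ.

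**Figure D5:**
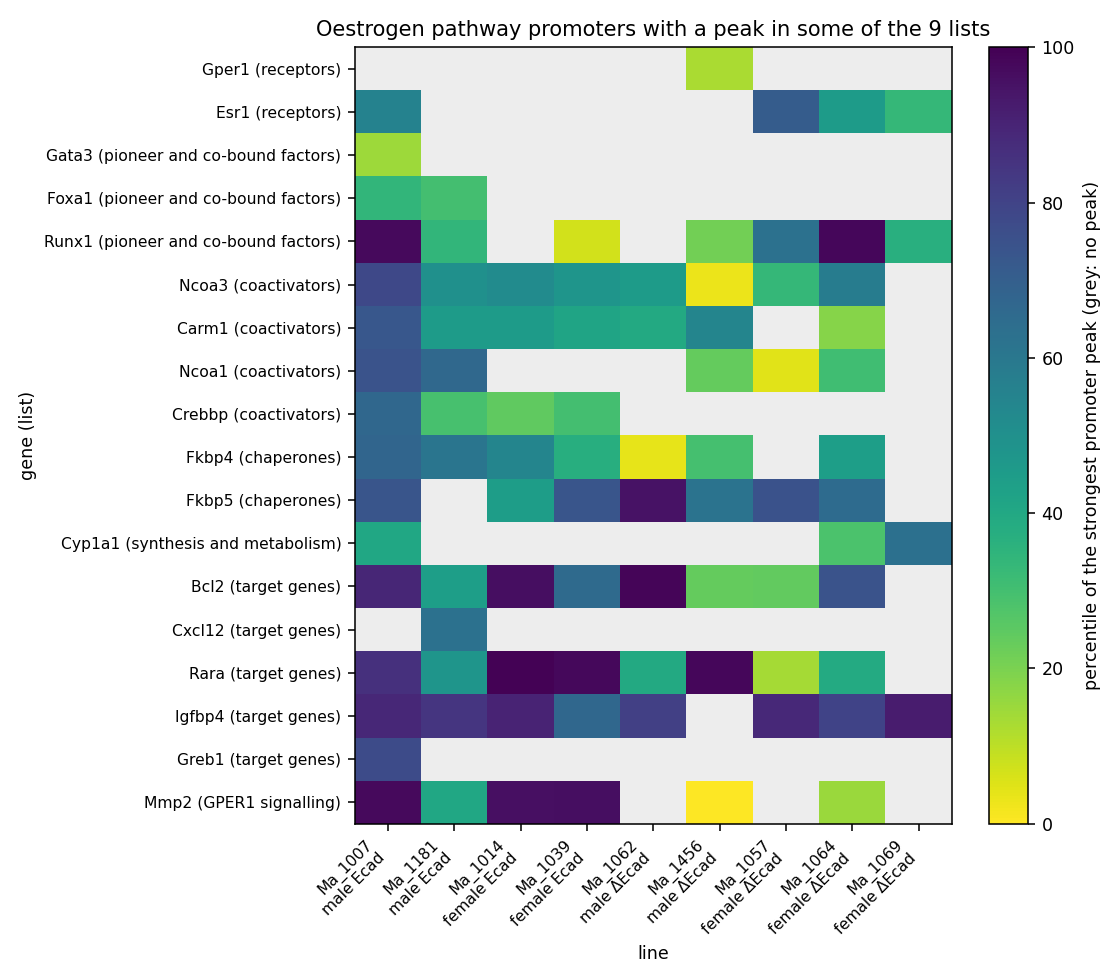
Pathway promoters called in some but not all lists (18 rows, with their list), with colour giving the percentile of the strongest promoter peak in each list (columns); grey means no peak within 1 kb of a start site. Esr1 is called in Ma_1007 and the 3 female ΔEcad lists, and most other rows are grey in Ma_1069.

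The other nuclear receptor for oestrogen, Esr2, had no promoter peak in any list. Of the pioneer and partner factors of ERα known from breast tissue, 3 of 7 were called in every list, beside 21.1% of all protein-coding genes. Foxa1, which opens chromatin for ERα, was called in Ma_1007 (percentile 34.0) and Ma_1181 (29.7), and Gata3 in Ma_1007 alone (14.6). Runx1 was called in 7 lists, with percentiles of 62.6, 98.3 and 36.8 in the 3 female ΔEcad lists. In Ma_1007, Ma_1181, Ma_1039 and Ma_1456 they were 97.5, 34.2, 6.87 and 21.4. Xbp1 and Tfap2a were called in 9 and Tfap2c in none.

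Of 8 coactivators, 4 were called in every list, beside 21.1% of all protein-coding genes. Crebbp, a histone acetyltransferase that adds the measured mark, had a call in each of the 4 Ecad lists and in none of the 5 ΔEcad lists (exact p = 0.00794, adjusted p = 1.0), with percentiles of 24.6 to 66.6. Its paralogue Ep300 was called in all 9. In the exact test of ΔEcad against Ecad, 3.01% of all genes had an unadjusted p under 0.05, 655 of them called less often in ΔEcad lists. Ncoa3 was called in all lists but Ma_1069, Ncoa1 in 5 and the methyltransferase Carm1 in 7. Of 5 corepressors, 4 were called in every list, with Ncor1 and Nrip1 among them, beside the same 21.1%. Among chaperones of the unliganded receptor, Fkbp4 and Fkbp5 were each called in 7 lists and the other 3 in 9, again beside 21.1% of all genes.

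Enzymes of oestrogen synthesis and breakdown were mostly without a promoter peak: 5 of 7 (71.4%, beside 47.1% of all protein-coding genes), with the aromatase gene Cyp19a1 among them, were called in no list. Cyp1a1, which hydroxylates oestradiol, was called in Ma_1007, Ma_1064 and Ma_1069, at 40.4, 28.5 and 63.2.

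Of 16 classical targets of ERα, 9 (56.2%, beside 47.1% of all protein-coding genes) were called in no list, among them Pgr, Tff1 and Areg. Greb1 was called in Ma_1007 alone (percentile 77.0) and Cxcl12 in Ma_1181 alone (62.8). Ccnd1 and Ctsd were called in all lists, Bcl2 and Rara in all but Ma_1069, and Igfbp4 in all but Ma_1456. In the signalling of GPER1, Gnas and Src were called in 9 lists, Mmp2 in 6, and Egfr, Hbegf and Mmp9 in none. Ma_1007 had the most pathway promoters called, 36 of 57, and Ma_1069 the fewest, 22. Those are also the longest and the shortest list, and the part of list length in these counts was not tested. The share of all promoters called in each list was not set beside these counts, so nothing is read from them.

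Promoter calls equal to those of Esr1 over the 9 lists were found for 16 other genes (0.0729% of the rest). Those with the highest mean percentile over the 4 calling lists were Lmo2, a cofactor of blood cell transcription factors (89.7), Gm3371 (78.8), Cobl, an actin nucleator (74.4), Mansc1 (68.4) and Gimap9 (63.4), beside 51.3 for Esr1. Of the 16, 7 were above Esr1. Calls in Ma_1456 alone, as for Gper1, were found for 119 genes (0.542%), led by Nox3 (97.0), Gm867 (96.2), Srrm4 (91.0), Il17ra (90.7) and Prom1 (87.6), beside 12.8 for Gper1.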

How the data were processed

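H3K27ac ChIP-seq was read from 9 deposited peak lists, 1 for each cell line, with groups from the labelled sex and genotype. The submitters' processing notes name Bowtie2 2.4.5, MACS2 2.2.7.1 and deepTools 3.5.1.0.0, with no settings, and GRCm38 (mm10). Which of the 4 input libraries, not analysed here, was the control of which list is not given in the sources used here. In each deposited file the fold enrichment of a peak over background is a linear ratio, the −log10 q is the authors' value (lowest 5, a q-value of 1e-05), and another column gives the summit offset in bp, by the authors. Lists hold no counts, so depth is unknown and no interval could be given; a region without a peak is not a region without the mark.

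From these files, percentiles of −log10 q were taken within each list, peaks overlapping by 1 bp or touching were merged, and a promoter was called where a peak lay within 1 kb of a start site in GENCODE M21. Calls were compared by Fisher's exact test over 21938 protein-coding genes with Benjamini-Hochberg adjustment. Lines are the replicates. The exact test takes them as independent, which the sources used here do not state, and its p-values refer to these lines only. The caller, the covered length and the test were tested on simulated data. Sequences are those of RefSeq for GRCm38, and motifs were matched letter by letter. Of the pathway genes, those called in 1 to 8 lists were named, as were Esr2, Pgr and up to 5 genes with calls equal to a member; the rest were counted, and a few genes under this rule are not reported here. Tff1, Areg, Cyp19a1 and the genes named as called in every list or in none were named after their values were seen. All 57 pathway genes matched the annotation, 1 of them (Ca12) through a synonym. The 2 genes and all lists were chosen with earlier results of these data known. Python 3.11.15, scipy 1.17.1, pandas 2.3.3 and numpy 2.4.6 were used. Alternatives were shorter lists, other windows and flanks, summits in place of edges, wider merging and leaving out each line.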

Additional observations from a re-analysis of the deposited data

Results flagged for a closer look

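Ma_1007 stood apart from the other lines outside the female ΔEcad group. Its Esr1 coverage of 4.203 kb was far above the other 3 Ecad lists (0 to 0.212 kb), and also above the other 5 lists outside the female ΔEcad group (0 to 0.938 kb). It also had the most peaks at Gper1 among the 4 Ecad lists, 4 against 2 in each of the rest. At the Gpr146 element 43.2 kb before Gper1, Ma_1069 was far below the other 4 ΔEcad lists, with a percentile of 8.61 against 70.8 to 93.9. These are descriptions of lists that stand apart, with no p. Lists were picked for this section where the gap to the nearest list took up more of the range than the 95% critical value of Dixon. Of 18 sets of values looked at, 4 were marked, with the Esr1 coverage of Ma_1007 marked in both groupings. The usual rate of about 1 in 20 does not hold here. The sets overlap, Esr1 was chosen with its values known, and the Gper1 peak counts were tied in the other Ecad lists, so any gap there filled the range. Ma_1007 was the longest list and Ma_1069 the shortest. The part of list length in these values was not tested.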

How the results depend on the processing

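No paired analysis was possible because the labels give the lines no replicate numbers and nothing pairs a line of one group with a line of another. The difference in Esr1 coverage between female ΔEcad and the other lists was 5.64 kb and kept its size under the stronger 50% of each list, equally long lists, peaks of at least 500 bp, the gene body alone and a 100 kb flank (5.22 to 5.76 kb). Leaving out 1 line gave 5.13 to 6.44 kb. Per Mb of the list, a scale added after the data were seen, the groups stayed apart with and without Ma_1007, and the share of all genes doing so was not taken. The share of lists with an Esr1 promoter call differed by 83.3 percentage points, by 16.7 points in the stronger 50% of each list, and by 80.0 points or more with 1 line left out. At Gper1 the coverage difference was −4.19 kb, −0.123 kb over the gene body alone, −7.58 kb with a 100 kb flank and −61.5 bp per Mb of the list, and −4.9 to −2.9 kb with 1 line left out. Gper1 had 5 elements, 1 in the body alone and 4 to 5 with 1 line left out, and Esr1 had 7 elements, 5 to 6 under the alternatives and 6 to 7 with 1 line left out. The promoter difference at Gper1 ran from −20.0 to 0.0 points with 1 line left out.

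Promoters past an unadjusted p of 0.05 numbered 980 for female ΔEcad against the rest (742 to 1023 under the alternatives) and 661 for ΔEcad against Ecad (491 to 701). With 1 line left out they numbered 566 to 1070 and 141 to 293. Leaving out any of the 9 lines moved the second count by over 1.5 times, and leaving out Ma_1007 (567), Ma_1181 (577), Ma_1014 (566), Ma_1039 (589) or Ma_1069 (582) moved the first. Fewer lines raise the smallest p that can be reached, which is part of how that alternative is built. None of these settings gave a gene past an adjusted p of 0.05, for which the smallest p within reach left almost no room. With 1 list per line, no depth and 2 or 3 lines per group, differences between groups could not be resolved by a test, and those given above are descriptions.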
